A study of Mus musculus with 8 samples.

Results

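The oligoadenylate synthetase (Oas) and Oas-like (Oasl) genes were followed in sorted colonic myeloid cells of CD98hcΔCX3CR1 mice, control and cKO. The members are all rows of the table of unique molecular identifiers (UMIs) that carry an Oas or Oasl symbol, which are 9 of the 16889 genes counted. A list of 12 mouse Oas and Oasl genes was looked up, and the counts of Oas1b, Oas1d and Oas1f are not analysed here. The 6 rows with more than 100 UMIs (Oas1a, Oas1g, Oas2, Oas3, Oasl1 and Oasl2) held 99.6% of the 10475 family UMIs in the cells kept. Oas1c, Oas1e and Oas1h had 40, 5 and 2 UMIs. The rows were chosen by gene symbol and no fold change entered the rule, although the family was picked with earlier results of these data known. The cell classes in which the genes were followed were selected on measured marker levels, so levels across classes are given as a description with no test.

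Both groups were female littermates of 6 to 12 weeks from a cross of CD98hc flox/flox mice with Cx3cr1 CreER-YFP mice, so that the controls carried the floxed gene and the Cre recombinase too. The 4 cKO mice received 100 µl of tamoxifen at 20 mg/ml on 5 days in a row and the 4 control mice received corn oil, and day 7 was the day of the readout. CD11b+ cells positive for CCR2 or CD64 were sorted and captured with a 3′ kit, with 1 well for each mouse, all on one day. Cre acts only in cells that express or have expressed Cx3cr1 at the time of the injections, and EYFP marks the activity of that promoter. Only the cKO mice had tamoxifen, so the drug and the deletion cannot be told apart. The level of the targeted gene Slc3a2, which encodes CD98hc, does not check the labels, since its log2 fold change was 0.02 (adjusted p = 0.976, edgeR), and reads from the 3′ end cannot tell an excised transcript from a whole one.

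Of 5947 barcodes, 3213 cells were kept, from 83 to 724 per mouse, with 497531 to 3762314 UMIs per mouse. Control replicate 3 and cKO replicate 5 had the fewest cells (85 and 83), and Scrublet marked 22 of the 83 cells of cKO replicate 5 as doublets, which were kept. Among the cells kept, 8 barcodes occurred in more than one library. Levels are given in CPM, the UMIs of a gene per 1000000 UMIs of the same cells. Because a 3′ kit counts a molecule near its end, CPM was not divided by the length of the transcript.

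Oas enzymes bind double-stranded RNA, which is typical of viral infection, and then join ATP into chains of adenylate with unusual 2′-5′ links. These chains are a second messenger of the defence against viruses. The genes of the family are classical targets of interferons: receptors pass the signal through JAK kinases to factors such as STAT2 and IRF9, which act at the interferon-stimulated response element in promoters. Monocytes and macrophages are known to express the family readily.

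All members lie on chromosome 5 of mm10 (GRCm38), in a pair of groups that lie apart. Oasl2 (ENSMUSG00000029561, chr5:114896936-114912234, plus strand) and Oasl1 (ENSMUSG00000041827, chr5:114923240-114937915, plus strand) adjoin each other. Oas2 (ENSMUSG00000032690, chr5:120730333-120749853), Oas3 (ENSMUSG00000032661, chr5:120753098-120777661), Oas1g (ENSMUSG00000066861, chr5:120876142-120887613) and Oas1a (ENSMUSG00000052776, chr5:120896256-120907521) follow on the minus strand. The promoter table of RefSeq (GRCm38.p6), which covers 250 bases before and 50 bases after a gene's start, held 8 family promoters. Oas1f, whose counts are not analysed here, is among them, and Oas2 had no entry. The promoters were searched on both strands for GAAANNGAAA, the core of the interferon-stimulated response element. Of the 8, 4 held it, compared with 3.44% of 32851 promoters of the same length. The promoters of Oas1a, Oas1g and Oas3 are shown because these are members with a match among those that rose in cKO mice, and capitals mark the matches, which overlap each other in Oas1a and Oas1g.
Oas1a (chr5:120907476-120907775, minus strand): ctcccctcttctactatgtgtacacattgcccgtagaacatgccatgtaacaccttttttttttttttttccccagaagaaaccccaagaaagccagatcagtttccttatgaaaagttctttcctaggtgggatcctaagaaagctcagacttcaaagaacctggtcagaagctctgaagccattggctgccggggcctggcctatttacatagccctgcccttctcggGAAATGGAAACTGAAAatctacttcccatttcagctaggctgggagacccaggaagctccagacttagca
Oas1g (chr5:120887564-120887863, minus strand): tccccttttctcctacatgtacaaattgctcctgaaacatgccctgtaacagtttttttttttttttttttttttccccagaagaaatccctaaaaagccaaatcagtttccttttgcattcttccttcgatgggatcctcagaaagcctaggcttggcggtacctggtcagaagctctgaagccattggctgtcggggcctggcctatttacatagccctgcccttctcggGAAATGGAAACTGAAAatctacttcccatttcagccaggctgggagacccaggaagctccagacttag
Oas3 (chr5:120777610-120777909, minus strand): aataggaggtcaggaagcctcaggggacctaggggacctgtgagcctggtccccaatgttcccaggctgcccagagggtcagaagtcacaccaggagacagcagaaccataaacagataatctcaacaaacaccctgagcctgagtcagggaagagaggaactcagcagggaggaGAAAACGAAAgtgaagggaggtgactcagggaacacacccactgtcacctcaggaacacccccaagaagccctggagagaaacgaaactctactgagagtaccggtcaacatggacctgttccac
In Oas1a and Oas1g the matches ran from base 231 to 246 and from base 233 to 248 of the window, just before the annotated start, and in Oas3 from base 176 to 185. Oas1c held matches on the opposite strand. The windows of Oasl1 and Oasl2, which rose as well, did not hold these letters. The windows of Oas1a and Oas1g were identical at 88.8% of 294 aligned bases, and their matched stretches hold the same letters. A match is only a description of the sequence.

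The rows of Oas1a and Oas1g were not independent of each other. Their longest coding transcripts were 97.5% identical over 1860 aligned bases. Of all 58-base windows of the Oas1a transcript, the length of the sequenced read, 53.0% also occurred in Oas1g and none in another Oas or Oasl row. Among the last 500 windows the share was 57.4% for Oas1a in Oas1g and 34% for Oas1g in Oas1a. In single cells the counts followed each other: 505 cells had counts of the pair that summed to 2, and in 491 of them (97.2%) each row held 1 UMI. Of 1622 cells with either row, 1500 (92.5%) had counts that differed by at most 1. Across cells, Pearson's r between the rows was 0.915 in control and 0.960 in cKO cells, compared with 0.367 and 0.460 between Oas1a and Oasl2. These correlations are across cells of shared libraries and are a description. How the reads of the pair were assigned was not tested, so a family sum that counts both may count a molecule more than once. The numbers of members and of rows given below count Oas1a and Oas1g separately. Where both are called, they may stand for only 1 measurement.

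**Figure D1:**
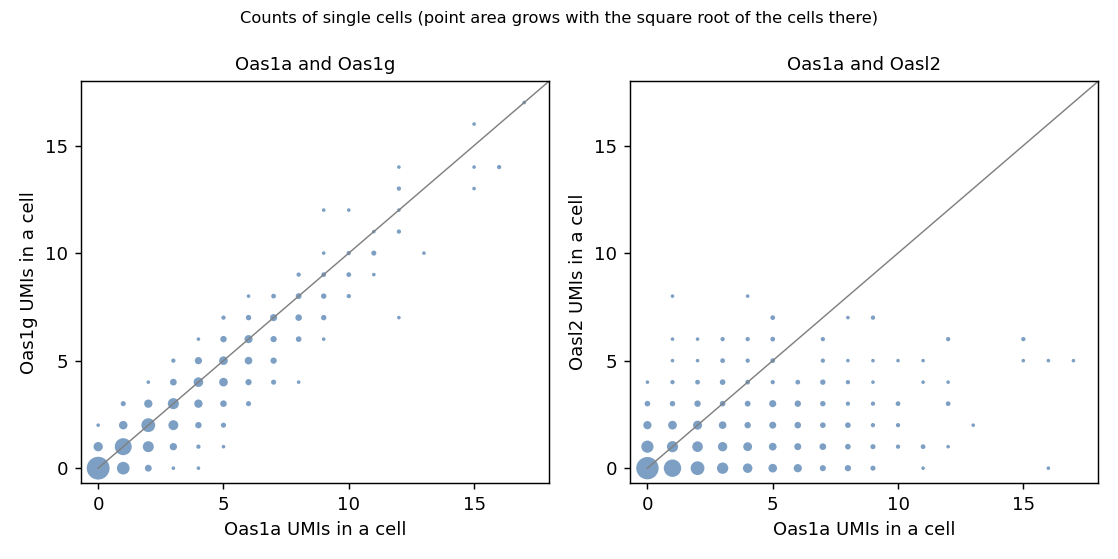
UMIs of Oas1a in each of the 3213 cells (horizontal axis) against UMIs of Oas1g (left) and Oasl2 (right) in the same cell. The area of a point grows with the square root of the number of cells at that position, and the grey line marks equal counts. The Oas1g counts lie along the line up to 17 UMIs, whereas the Oasl2 counts spread widely at every Oas1a count.

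The family rose in cKO mice. Over all cells of a mouse, the summed family UMIs were 228, 205, 256 and 307 CPM in the control mice, replicates 1 to 4. The cKO mice, replicates 5 to 8, had 886, 857, 1421 and 1091 CPM. Every cKO mouse was thus above every control mouse, and the means were 249 ± 43.9 CPM in control and 1064 ± 260 CPM in cKO mice (SD, n = 4 each). The log2 ratio of the means was 2.09, and 2.12 with the Oas1g row left out, which was chosen after the values were seen. As a score over the members, the sum is given without a test. In sums over all cells, more cells of a class and more RNA per cell cannot be told apart.

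In the fit across all genes, 6 of the 7 members tested rose in cKO mice (Oas1a, Oas1g, Oas2, Oas3, Oasl1 and Oasl2), and Oas1c did not pass the threshold. The background for this count is the 2.99% of 11387 genes tested that rose, 341 genes, and 4.48% were called in either direction. For 5 members (all but Oasl1 and Oas1c) every cKO mouse was above every control mouse, compared with 4.00% of all genes tested. All adjusted p values come from the quasi-likelihood test of edgeR, adjusted over all genes tested after Benjamini and Hochberg.

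Oas1a, an active synthetase, had levels of 96.7, 86.9, 102 and 133 CPM in control replicates 1 to 4 and of 326, 334, 564 and 416 CPM in cKO replicates 5 to 8. The lowest cKO mouse was therefore well above the highest control mouse. The log2 fold change was 2.08 ± 0.22 (SE, adjusted p = 3.7e-04). Oas1g, whose row follows that of Oas1a cell by cell, went from 75.8 to 107 CPM in control mice and from 299 to 504 CPM in cKO mice, with a log2 fold change of 2.16 ± 0.21 (SE, adjusted p = 2.3e-04).

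The large synthetases Oas2 and Oas3, built from repeated synthetase units, had few UMIs. Oas3 counted 19, 14, 1 and 23 UMIs in control replicates 1 to 4, which were 5.05, 4.28, 1.70 and 7.74 CPM. In cKO replicates 5 to 8 it counted 22, 63, 117 and 89 UMIs, which were 44.2, 38.1, 47.1 and 38.9 CPM. The cKO mice lay close to each other, and Oas3 had the largest log2 fold change of the members called, 3.08 ± 0.25 (SE, adjusted p = 7.1e-05). It ranked as number 20 of all genes tested by fold change and as number 5 by p value.

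Oas2 had 5.32, 5.81, 5.09 and 9.76 CPM in control replicates 1 to 4 and 28.1, 10.9, 25.3 and 24.5 CPM in cKO replicates 5 to 8. The highest control mouse (replicate 4) and the lowest cKO mouse (replicate 6) nearly met. Its log2 fold change of 1.79 ± 0.33 (SE, adjusted p = 0.012) was the only one of the 6 that lost its call under an alternative, with an adjusted p of 0.054 without control replicate 1 and 0.052 without control replicate 2.

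Oasl2 is a ubiquitin-like-domain member of the family that is an active synthetase in mice. It had 26.3, 21.1, 28.9 and 37.4 CPM in control replicates 1 to 4 and 167, 119, 176 and 157 CPM in cKO replicates 5 to 8. The groups were far apart, with a log2 fold change of 2.55 ± 0.21 (SE, adjusted p = 7.1e-05). Oasl1, which lacks synthetase activity and is known to restrain the translation of IRF7, had 10.1, 9.17, 11.9 and 20.2 CPM in control replicates 1 to 4. In cKO replicates 5 to 8 it had 18.1, 47.8, 101 and 60.4 CPM. Here the groups overlapped, since cKO replicate 5 lay below control replicate 4. The log2 fold change was 2.34 ± 0.41 (SE, adjusted p = 0.010), the largest standard error among the 6.

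Oas1c, known as an inactive relative of Oas1a, had 12 UMIs in all control cells and 28 in all cKO cells, 17 of them in cKO replicate 8. Its log2 fold change of 1.86 ± 0.62 (SE) did not pass the threshold (adjusted p = 0.113). Oas1e had 2 UMIs in control and 3 in cKO cells, and Oas1h none in control and 2 in cKO cells, too few for a test.

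**Figure D2:**
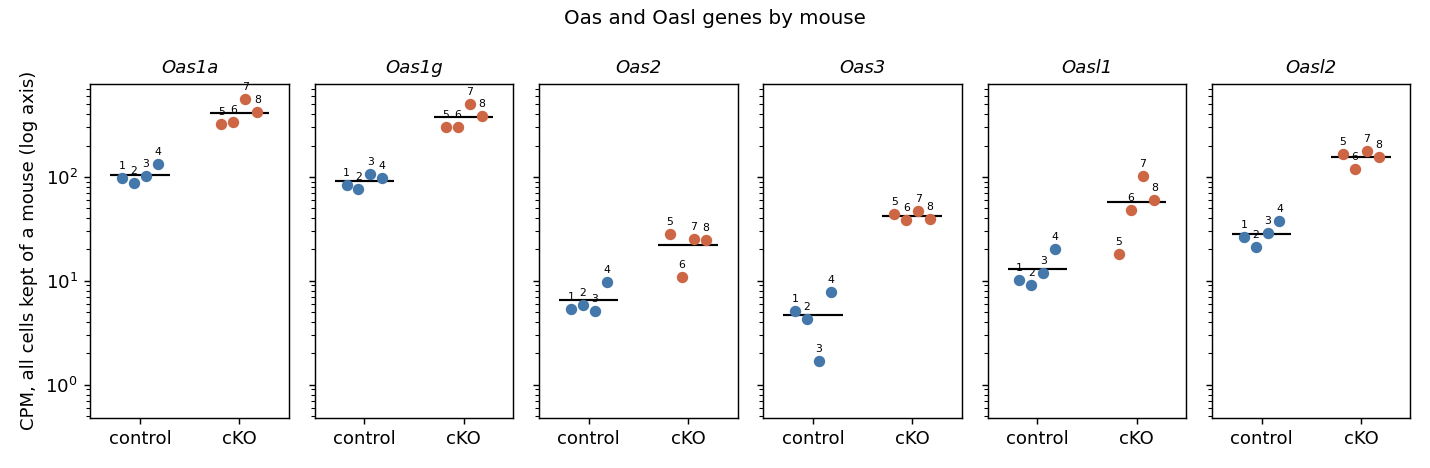
Level of each of the 6 members in CPM over all cells kept of a mouse, on a log axis, for the 4 control mice (blue, replicates 1 to 4) and the 4 cKO mice (orange, replicates 5 to 8). Points are mice with their replicate number and black lines are group means. All cKO mice lie above all control mice for every member shown but Oasl1, where cKO replicate 5 (18.1 CPM) lies below control replicate 4 (20.2 CPM).

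Across 16 alternatives, the log2 fold change of Oas3 stayed between 2.70 and 3.48 and that of Oasl2 between 2.25 and 2.72. For Oas1a it stayed between 1.67 and 2.21, for Oas2 between 1.35 and 2.23 and for Oasl1 between 1.91 and 2.72. Scaling by library totals, in place of TMM, moved the median log2 fold change of all genes from -0.03 to -0.13 and the share of higher genes among those called from 66.9% to 50.8%, while the 6 members stayed between 1.68 and 2.97.

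The make-up of the family's UMIs also differed between the groups for some members. Oasl2 made up 11.3% ± 0.788 of the family's UMIs in control mice and 14.8% ± 2.78 in cKO mice (SD, n = 4 each), with the lowest cKO mouse (12.4%) above the highest control mouse (12.2%). Oas3 went from 1.87% ± 0.827 to 4.08% ± 0.777 and its groups did not overlap either. The share of Oas1a was 42.0% ± 1.55 in control and 38.4% ± 1.26 in cKO mice, with the highest cKO mouse (39.68%) just below the lowest control mouse (39.74%). The shares of Oas1g, Oas2 and Oasl1 overlapped between the groups. These shares sum to a fixed total, so they do not move independently of each other, and they were not tested.

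A larger share of cells carried the family's transcripts in cKO mice than in control mice. The shares are over all classes of cell, so the make-up of the cells and the level per cell are not separated. The share of cells with a family UMI was 41.7% ± 4.60 in control mice and 79.0% ± 7.17 in cKO mice (SD, n = 4 each). With every cell thinned to 1000 UMIs, which left out 99 control and 79 cKO cells of lower depth, the shares were 20.4% ± 2.69 and 57.3% ± 7.84. No control mouse reached the lowest cKO mouse (23.5% and 48.9%). In the thinned cells, pooled over the mice of a group, 1.87% of control cells and 15% of cKO cells held 3 or more family UMIs. For Oas1a alone, the thinned shares were 11.3% ± 1.67 and 33.7% ± 7.36. For Oasl2 they were 3.97% ± 0.461 and 15.3% ± 4.59.

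Single cells rarely showed the whole family. No member row was seen in 58.3% of control cells and 20.1% of cKO cells. From 4 rows upwards were seen in 38, 8 and 2 control cells (4, 5 and 6 rows) and in 184, 68 and 14 cKO cells. Of the control cells with an Oasl2 UMI, 60.7% also had an Oas1a UMI, and of the cKO cells with an Oasl2 UMI, 85.6% did. Of the cells with an Oas3 UMI, 73.1% of the control cells and 91.2% of the cKO cells had an Oas1a UMI. Of all cells, 33.4% of the control cells and 70.7% of the cKO cells had an Oas1a UMI, the base against which these shares stand. Deep cells have more chances for any pair, so the shares are a description at the depth sequenced.

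Cells were then grouped into 9 clusters, with 154 genes left out of the clustering, namely the Oas and Oasl genes and a list of interferon-induced genes. By their markers, 6 clusters were called monocyte-like (544 cells), macrophage-like (386), low-UMI macrophage-like (300), dendritic cell-like (529), lymphoid-like (181) and stromal-like (86). The low-UMI macrophage-like cells are shallow, since their median number of UMIs was 0.248 times the median of all cells in the same samples. The other clusters did not meet the naming rule and are called by their leading genes, as the Mmp12 Vegfa cluster (668 cells), the Ms4a8a Ccr2 Prtn3 cluster (287) and the Saa3 Il1a Acod1 cluster (232).

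In control mice the family was highest in monocyte-like cells, with a mean of 739 ± 181 CPM (SD, n = 3 mice with at least 20 cells). The Ms4a8a Ccr2 Prtn3 cluster followed with 443 ± 40.4 CPM (SD, n = 3), and the ranges of the mice (532 to 863 and 403 to 484 CPM) did not overlap. Next came the Mmp12 Vegfa cluster with 326 ± 115 CPM (SD, n = 4), low-UMI macrophage-like cells with 285 ± 76.0 CPM (SD, n = 3) and macrophage-like cells with 236 ± 32.8 CPM (SD, n = 3). These neighbours overlapped in their mice. Dendritic cell-like cells had 131 ± 65.8 CPM (SD, n = 4) and lymphoid-like cells 37.6 ± 39.0 CPM (SD, n = 3), again with overlapping mice. The Saa3 Il1a Acod1 cluster and stromal-like cells had 1 control mouse each with enough cells, at 355 and 49.2 CPM.

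Over the pooled cells, the level was higher in cKO mice in every cluster. Monocyte-like cells had 1474 ± 239 CPM and the Saa3 Il1a Acod1 cluster 1480 ± 87.2 CPM (SD, n = 3 each). The Mmp12 Vegfa cluster had 1042 ± 152 CPM (SD, n = 4) and low-UMI macrophage-like cells 1071 ± 413 CPM (SD, n = 3). Dendritic cell-like cells reached 524 ± 255 CPM and lymphoid-like cells 234 ± 84 CPM (SD, n = 3 each). Macrophage-like cells and the Ms4a8a Ccr2 Prtn3 cluster had 1 cKO mouse each with enough cells, replicate 8, at 1030 and 1646 CPM. Stromal-like cells had no such cKO mouse. In each of the 5 clusters with at least 3 mice per group, the lowest cKO mouse was above the highest control mouse.

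**Figure D3:**
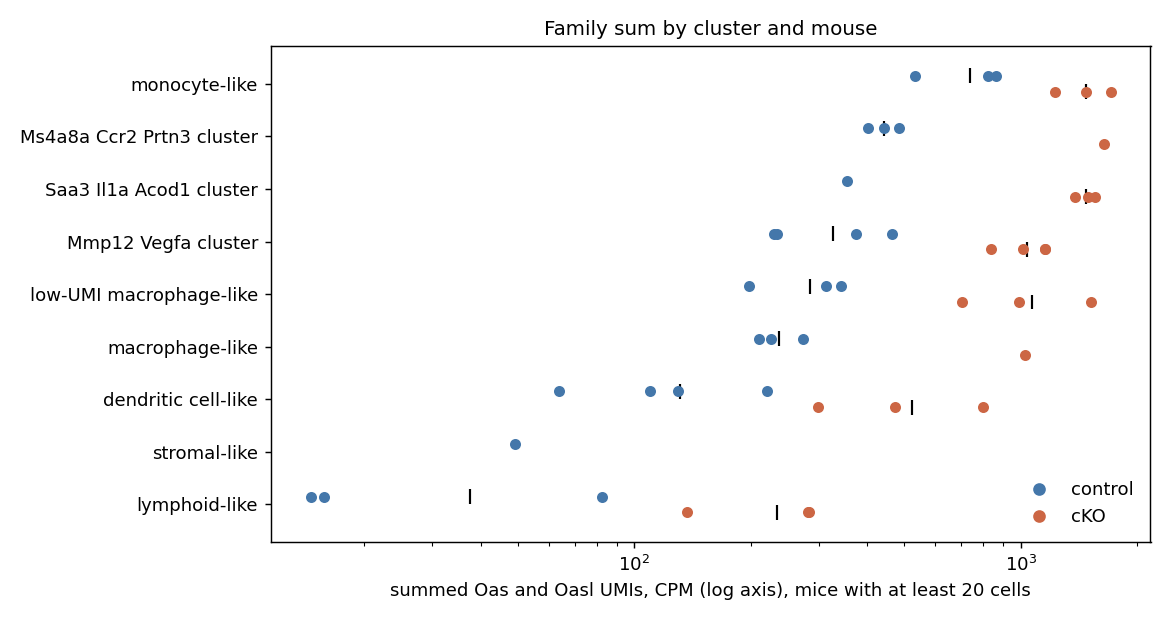
Summed family level in CPM on a log axis by cluster, for control mice (blue) and cKO mice (orange) with at least 20 cells in the cluster. Points are mice, and black lines are means where there were at least 2 mice. Control monocyte-like cells (532 to 863 CPM) lie above the control cells of the other clusters, and the cKO mice lie to the right of the control mice in every cluster with both groups.

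The rise was also compared between clusters. Over the pooled cells of a cluster, the family went from 716 to 1529 CPM in monocyte-like cells, a ratio of 2.14. The ratio was 3.12 in the Mmp12 Vegfa cluster, 3.41 in macrophage-like cells, 3.78 in the Ms4a8a Ccr2 Prtn3 cluster, 3.85 in dendritic cell-like cells, 3.92 in low-UMI macrophage-like cells and 4.42 in the Saa3 Il1a Acod1 cluster. From 16 control UMIs each, it was 6.0 in lymphoid-like and 9.05 in stromal-like cells. The test of a difference between clusters in the change from control to cKO called no member, with an adjusted p of 1 for each in edgeR and unadjusted p values from 0.055 (Oasl2) to 0.685 (Oas1c). No member had an unadjusted p under 0.05, DESeq2 and limma called none either, and among all genes 0.0177% of 11283 were called. Among the clusters tested, a difference in the size of the rise is therefore not shown. Macrophage-like cells, stromal-like cells and the Ms4a8a Ccr2 Prtn3 and Saa3 Il1a Acod1 clusters lacked 2 sums per group and were not in this test.

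Within clusters, the members called differed. In the Mmp12 Vegfa cluster, 5 members rose, where 0.576% of 11283 genes rose. These were Oasl1 (log2 fold change 2.82 ± 0.60 SE, adjusted p = 0.0051), Oasl2 (2.39 ± 0.39, 9.6e-05), Oas3 (2.22 ± 0.50, 0.012), Oas1g (1.55 ± 0.27, 2.0e-04) and Oas1a (1.5 ± 0.28, 8.2e-04). Oas2 had 0.70 ± 0.52 (SE, adjusted p = 0.878), and it had -0.84 when all genes entered the clustering and -0.20 in a graph clustering. The clusters matched to it in these clusterings shared few cells with it (Jaccard index 0.306 and 0.338) and had 2 and 3 calls. Without control replicate 1 the cluster had 3 calls.

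In dendritic cell-like cells, 4 members rose (background 0.363%), namely Oas3 (2.85 ± 0.57 SE, adjusted p = 0.0047), Oas1g (2.08 ± 0.31, 2.5e-05), Oasl2 (1.91 ± 0.47, 0.046) and Oas1a (1.81 ± 0.32, 6.9e-04). Oas1a had 44.8, 26, 43.1 and 89.7 CPM in the control mice and 87.5, 335 and 163 CPM in cKO replicates 6, 7 and 8, so that control replicate 4 and cKO replicate 6 nearly coincided. Leaving out cKO replicate 7, cKO replicate 8 or control replicate 2 gave 1, 2 and 2 calls, and fitting the cluster alone gave 1. With the mouse as a random term in limma-voom, 3 members were called. Oasl2 lost its call under 11 of 16 alternatives. Oasl1 had 1.73 ± 0.52 (SE, adjusted p = 0.227), with 11.8, 7.16, 11.8 and 40.1 CPM in the control mice and 79.5, 73.3 and 44.0 CPM in cKO replicates 6 to 8. Without control replicate 4, the highest control, its log2 fold change was 2.6 (adjusted p = 0.0020).

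In monocyte-like cells only Oas1g was called (1.19 ± 0.30 SE, adjusted p = 0.038, background 0.549%), and Oas1a, whose row is not separate from it, had 1.16 ± 0.31 (SE, adjusted p = 0.074). The levels of Oas1a were 317, 339 and 215 CPM in control replicates 1, 2 and 4 and 474, 691 and 584 CPM in cKO replicates 6, 7 and 8, without overlap. Oas3 had 15.8, 42.3 and 23.3 CPM in these control mice and 90.7, 62.1 and 63.2 CPM in these cKO mice, also without overlap (1.61 ± 0.47 SE, adjusted p = 0.133). Neither Oas1a nor Oas3 passed the threshold here. The share of all genes that separate in this way among these mice was not counted. The number of members called in monocyte-like cells ran from 0 to 3 over the alternatives, and it was 0 from 10 cells per sum and without control replicate 1, 2 or 4 or cKO replicate 7 or 8.

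In low-UMI macrophage-like cells, Oas1a (1.86 ± 0.42 SE, adjusted p = 0.023) and Oas1g (1.95 ± 0.42, 0.014) rose, where 0.310% of genes rose. These rows are not separate, so the calls may stand for only 1 measurement. With 64 family UMIs in control and 254 in cKO cells, both calls were lost without control replicate 1, cKO replicate 7 or cKO replicate 8 and in limma-voom, 1 was lost without control replicate 2, and 4 members were called with the cluster fitted alone. With sums from 10 cells, which admit more clusters, 4 members rose in the Ms4a8a Ccr2 Prtn3 cluster (Oas1a, Oas1g, Oasl1 and Oasl2, background 0.397%), 3 in macrophage-like cells (Oas1a, Oas1g and Oasl2, 0.185%) and 3 in the Saa3 Il1a Acod1 cluster (Oas1a, Oas1g and Oasl2, 0.353%). The Saa3 Il1a Acod1 cluster had 2 control sums, of 18 and 57 cells, and 3 cKO sums. The others had 3 sums per group. Their cKO sums held 11 to 31 cells in the Ms4a8a Ccr2 Prtn3 cluster and 12 to 25 in macrophage-like cells. In macrophage-like cells Oasl2 had a log2 fold change of 2.57 ± 0.44 (SE, adjusted p = 2.3e-04) and Oas1a one of 1.45 ± 0.34 (SE, adjusted p = 0.033).

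**Figure D4:**
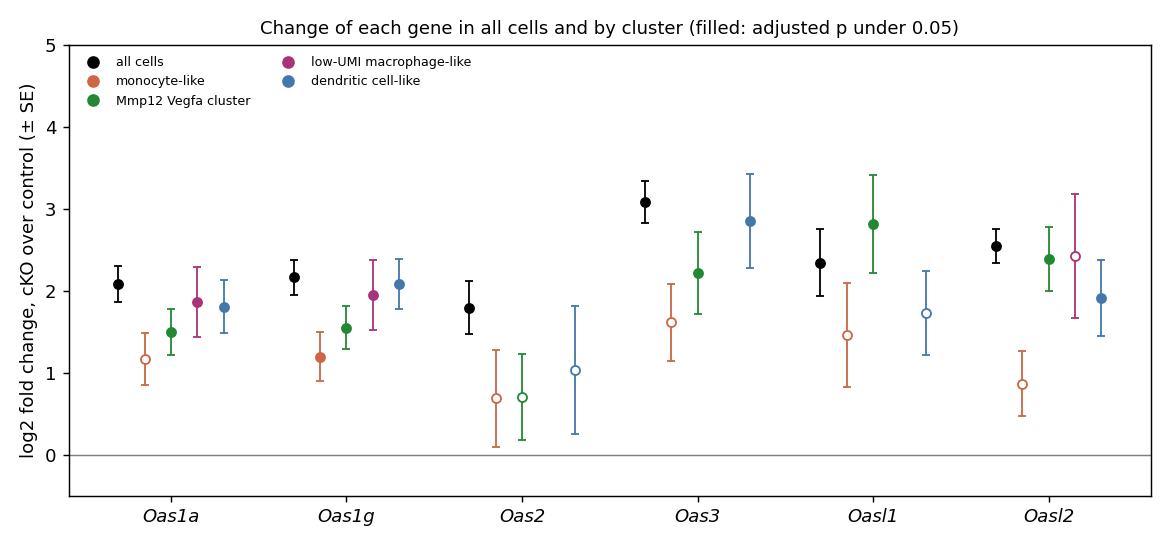
Log2 fold change of each member (cKO over control) with its standard error, in all cells summed (black) and in 4 clusters (colours). Filled points passed an adjusted p of 0.05 in edgeR, open points did not, and members with 3 or fewer UMIs in a group of a cluster are left out. All points shown lie above 0, from 0.69 for Oas2 in monocyte-like cells to 3.08 for Oas3 in all cells.

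The family was also seen in cells outside the myeloid classes. In lymphoid-like cells the pooled level went from 39.0 CPM (16 UMIs in 90 cells) to 234 CPM (97 UMIs in 91 cells). No member was called there by edgeR, DESeq2 or limma, where 0.124% of genes rose, although 4 of 7 had an unadjusted p under 0.05 in edgeR. Without the low-count filter 2 members were called. Oas2 and Oasl1 had no UMI in control lymphoid-like cells and 4 and 5 UMIs in cKO lymphoid-like cells, which is at least 1.32-fold and at least 1.65-fold higher against a floor of 3 UMIs over the group. All 5 Oasl1 UMIs came from cKO replicate 7, without which no bound can be given. In stromal-like cells the family went from 16 UMIs in 68 control cells (48.0 CPM) to 40 UMIs in 18 cKO cells (435 CPM), of which 28 were from cKO replicate 8.

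Free RNA in the suspension gives UMIs to cells that do not express a gene, so the levels were set beside those of monocyte-like cells. The family level in lymphoid-like cells was 5.45% of that in monocyte-like cells in control mice and 15.3% in cKO mice. For Lyz2, a lysozyme gene of myeloid cells, the values were 4.51% and 5.50%, and for the monocyte gene Chil3 they were 1.56% and 2.1%. Ly6c2, another monocyte marker that some lymphoid cells also express, stood at 86.7% and 124%. The share of lymphoid-like cells with a family UMI was 8.89% in control and 42.9% in cKO mice, at median depths of 3784.5 and 3435 UMIs. In stromal-like cells the family stood at 6.70% and 28.4% of its monocyte-like level, Oas1a at 3.18% and 21.5%, Oasl2 at 26.7% and 72.5% and Lyz2 at 1.06% and 1.58%. In lymphoid-like cells the family's share of its monocyte-like level was near that of Lyz2 in control mice and above it in cKO mice. The reference itself differed, since Lyz2 in monocyte-like cells was at 44342 CPM in control and 21335 CPM in cKO mice. Free RNA was not measured, and whether it accounts for these UMIs was not tested. Intervals and floors cover counting error only.

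Cells with a UMI of EYFP and cells without one were compared as a description chosen after the values were seen. In control mice the family level was 324 ± 40.5 CPM (SD, n = 3 mice with at least 20 such cells) with EYFP and 217 ± 57.4 CPM (SD, n = 4) without. In cKO mice it was 1091 ± 61.7 CPM (SD, n = 3) with EYFP and 1051 ± 288 CPM (SD, n = 4) without. Over all classes together, the level in cKO mice was therefore high in both kinds of cell, and a cell without an EYFP UMI may still carry the recombinase. Cells with an EYFP UMI numbered 373 in control and 108 in cKO mice. The split also follows cell class. Pooled EYFP was 183 CPM in control and 162 CPM in cKO macrophage-like cells. In dendritic cell-like cells it was 5.59 and 2.20 CPM, and in monocyte-like cells 80.6 and 11.1 CPM. The part of cell class in this comparison was not tested. Among dendritic cell-like cells, those with Xcr1 or Clec9a but no Cd209a went from 34.1 to 208 CPM pooled, and those with Cd209a but neither of the others from 213 to 977 CPM. No cKO mouse had 20 cells of either kind. The cKO values are over 43 and 25 pooled cells with 108 and 182 family UMIs, so they have no spread between mice.

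The cells of the groups differed in composition. Monocyte-like cells, the class with the highest control level, made up 2.35% to 9.65% of the cells of a control mouse and 16.9% to 42.8% of a cKO mouse. Dendritic cell-like cells went from 20.3% to 27.9% in control mice and from 4.75% to 10.1% in cKO mice. The summed level of 9 monocyte markers was 1614 to 3345 CPM in control and 7067 to 10336 CPM in cKO mice, with all 9 higher in cKO mice. That of 10 dendritic cell markers was 576 to 654 and 137 to 261 CPM, with none higher, and that of 13 macrophage markers was 11586 to 23365 and 9348 to 15708 CPM. The 7 neutrophil markers summed to 31.8 to 56.5 CPM in control and 70.0 to 130 CPM in cKO mice. The family's log2 ratio of group means was 2.09 over all cells and 1.75 without lymphoid-like, stromal-like and dendritic cell-like cells. A different measure, the difference in mean log2 family level with clusters weighted equally, was 1.93. It covers only the monocyte-like, low-UMI macrophage-like, dendritic cell-like, lymphoid-like and Mmp12 Vegfa clusters. Lymphoid-like cells, with 16 control family UMIs, weigh as much in it as monocyte-like cells. It is therefore not a value over all clusters and cannot be set directly beside the ratios of group means.

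The genes around the family were read from a list of 43 genes, of which 34 had a row and 31 were tested. Of these, 9 rose and 1 fell in cKO mice, and their median log2 fold change was 0.22, compared with -0.03 over all genes tested. Over all genes tested, 2.99% rose and 4.48% were called in either direction, the background for this list and each group within it. The list was chosen with earlier results of these data known.

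None of the 4 genes tested for the control and turnover of the oligoadenylate system was called by edgeR or DESeq2 or had an unadjusted p under 0.05, among them Abce1, a known inhibitor of the system, and Pde12, a phosphodiesterase that degrades the oligoadenylates. Of the 8 genes tested for interferon receptors and their kinases, edgeR called none (4 had an unadjusted p under 0.05) and DESeq2 called 1, and Il10rb, a receptor chain for type III interferons, came nearest with 0.62 ± 0.17 (SE, adjusted p = 0.058). Of 11 interferon ligand genes, 2 had a row and none had enough UMIs to be tested.

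Among 7 induction factors, 3 rose and 1 fell. Irf7, which drives type I interferon genes, went from 99.0 to 719 CPM on average, with a log2 fold change of 2.97 ± 0.29 (SE, adjusted p = 2.4e-04). Stat2 rose by 0.85 ± 0.19 (SE, adjusted p = 0.027) and Irf9 by 0.67 ± 0.16 (SE, adjusted p = 0.038). Irf8, a factor of monocytes and dendritic cells, fell by 0.89 (SE 0.18, adjusted p = 0.020). Without lymphoid-like, stromal-like and dendritic cell-like cells, Irf8 had -0.37 (adjusted p = 0.265) and Irf9 had an adjusted p of 0.0502.

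Usp18, a brake on interferon receptor signalling, rose by 1.83 ± 0.33 (SE, adjusted p = 0.010). Of 9 other sensors of double-stranded RNA and their partners, 5 rose. These were Zbp1 (2.0 ± 0.27 SE, adjusted p = 0.0023), Ddx58, which encodes RIG-I (1.80 ± 0.25, 0.0033), Dhx58 (1.32 ± 0.21, 0.0053), Ifih1, which encodes MDA5 (1.27 ± 0.29, 0.030), and Eif2ak2, which encodes the kinase PKR (1.02 ± 0.21, 0.020). Stat2, Ifih1 and Eif2ak2 each lost the call without control replicate 1, control replicate 2 or cKO replicate 8 and with mice thinned to the smallest total. Stat2 and Ifih1 also lost it without cKO replicate 7, and Eif2ak2 without lymphoid-like, stromal-like and dendritic cell-like cells (adjusted p = 0.051). Irf8 lost it without control replicate 2, cKO replicate 7 or cKO replicate 8. Irf9 lost it under 9 of 16 alternatives, and Usp18 without control replicate 2 (adjusted p = 0.0501).

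**Figure D5:**
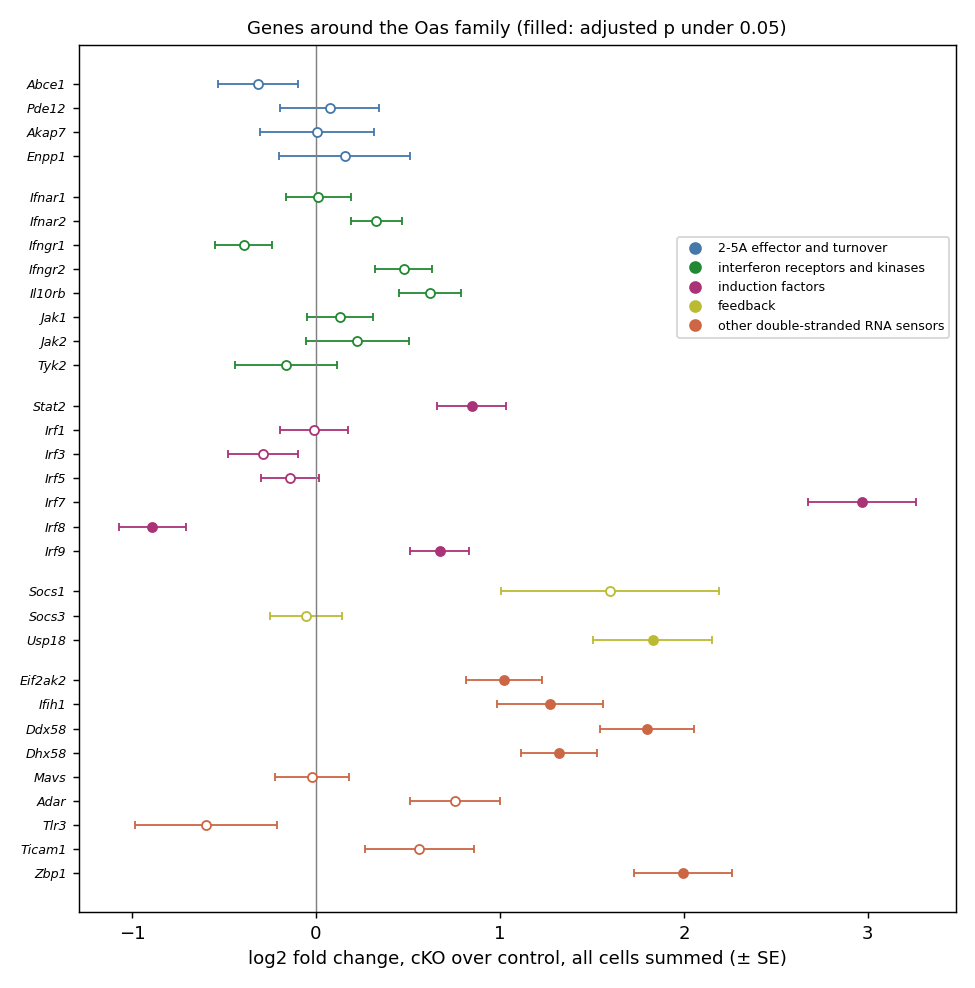
Log2 fold change (cKO over control, all cells summed) with its standard error for the 31 tested genes around the family, coloured by role. Filled points passed an adjusted p of 0.05 in edgeR. Irf7 (2.97), Zbp1 (2.0) and Usp18 (1.83) lie farthest to the right, the receptors and kinases lie between -0.39 and 0.62, and Irf8 (-0.89) lies farthest to the left.

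Finally, the genes whose level was most like the family sum were sought over 46 sums of a mouse and cluster, among 11276 genes. Pearson's r of log2(CPM + 1) was highest for Ifi204 (0.897), Rtp4 (0.895), Ms4a4c (0.832), Ifitm3 (0.816) and Fcgr1 (0.812). These points share mice, so r is a description. With the mean of each cluster and condition removed, Ms4a4c (0.793), Vwa5a (0.736), Ifitm3 (0.736), Ms4a6b (0.712) and Ms4a6c (0.708) came first, and Ifi204 fell to 0.138.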

How the data were processed

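Single-cell RNA sequencing was done on sorted colonic cells of 4 control and 4 cKO mice. The authors aligned the reads with Cell Ranger and STAR 2.5.3a, per the labels, to mm10 with the EYFP sequence added. The deposited values are whole UMI counts per gene and cell, merged without down-sampling and before any filter, with 497531 to 3762314 UMIs per mouse in the cells kept here. The filters on cells were a log10 of 2.8 or more for UMIs and 2.6 or more for genes, no hemoglobin UMI, and mitochondrial UMIs up to 5%. Clusters were made with scran 1.30.0 size factors and Ward clustering into 9 clusters, without the interferon and Oas genes, and the methods' dynamic tree cut was replaced by a fixed number. A cluster was named "X-like" from at least 2 of the listed markers among its leading 10 genes.

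Sums of UMI counts were taken over each mouse, or over the cells of a mouse in a cluster (at least 20), and tested with edgeR 4.0.16 (TMM, quasi-likelihood, R 4.3.3), for genes above 1 CPM in at least 3 samples and seen in at least 20 cells, at a false discovery rate of 0.05. Clusters with at least 2 sums per group shared a single fit, in which a sum of a mouse and cluster was the replicate and sums of the same mouse were taken as independent. The alternative in limma-voom has the mouse as a random term. The fits were tested on simulated data. A few genes of the lists are not reported here. The members and lists were chosen with earlier results of these data known. The genes named are all Oas and Oasl rows, the pathway genes called and the 5 genes most like the family sum. Other genes named (Il10rb, Abce1, Pde12, Lyz2, Chil3, Vwa5a, Ms4a6b and Ms4a6c) were chosen after the values were seen, as was the EYFP comparison. The family sum has a pseudocount of 1 CPM. Alternatives were DESeq2 1.42.0, limma-voom (limma 3.58.1), other scaling, filters, clusterings, thinning, Scrublet calls left out (scanpy 1.11.5) and each replicate left out.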

Additional observations from a re-analysis of the deposited data

Results flagged for a closer look

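Of 35 sets of 4 mice looked at (a member in a group of mice), 2 had a mouse far from the other 3 in Dixon's test, and chance flags about 1 in 20. Both were control replicate 4. It had 9.76 CPM of Oas2 over all cells, where the other control mice had 5.09 to 5.81 CPM, and 40.1 CPM of Oasl1 in dendritic cell-like cells, where the others had 7.16 to 11.8 CPM.

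The barcodes that failed the cell filters, which enter the report only in the alternative that used all barcodes, also carried the family. Their family level was 908 ± 217 CPM on average in cKO mice and 229 ± 69.2 CPM in control mice (SD, n = 4 each). The control mice had 146 to 308 CPM and the cKO mice 655 to 1184 CPM, without overlap, from 161 family UMIs in 1331 control barcodes and 580 in 1403 cKO barcodes. Of these barcodes, 907 and 880 had over 5% mitochondrial UMIs.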

How the results depend on the processing

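Over all cells, the 6 members kept their direction under every alternative tried, and 2 calls were lost, both of Oas2. The number of members called was 5 or 6 under all of them. The family's log2 ratio stayed between 1.92 and 2.21 with a replicate left out and moved to 1.75 without lymphoid-like, stromal-like and dendritic cell-like cells. The number of genes called was 510, compared with 787 without the low-count filter, 329 without lymphoid-like, stromal-like and dendritic cell-like cells, 290 with mice thinned to the smallest total, and 145 to 712 with a replicate left out. The number of pathway genes called was 10, compared with 6 with thinned mice and 4 to 10 with a replicate left out. The cause of these moves was not tested, beyond the smaller number of samples, cells or UMIs.

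The numbers of members called in clusters depended on the fit. Each cluster fitted alone gave 1 call in dendritic cell-like, 4 in low-UMI macrophage-like and 3 in monocyte-like cells. Limma-voom, where the mouse was a random term, gave 0 in low-UMI macrophage-like and 2 in monocyte-like cells. No low-count filter gave 4, 3 and 2 in low-UMI macrophage-like, monocyte-like and lymphoid-like cells, and sums from 10 cells gave 0 in monocyte-like cells. Clustering on all genes gave 2 and graph clustering 3 in the Mmp12 Vegfa cluster, and both gave 3 in monocyte-like cells. With a replicate left out, the counts ran from 1 to 5 in dendritic cell-like, 0 to 2 in low-UMI macrophage-like, 0 to 2 in monocyte-like cells and 3 to 5 in the Mmp12 Vegfa cluster. Oas2 reversed to -0.84 with all genes clustered and -0.20 in the graph clustering in the clusters matched to it, which shared few cells with it (Jaccard index 0.306 and 0.338). No interaction was called under any alternative that gave a value, which fitting each cluster alone did not. The best matches of the monocyte-like and lymphoid-like clusters among 12 clusters, and of the dendritic cell-like and lymphoid-like clusters in the graph clustering, had fewer than 2 mice with 20 cells in a group and were not tested. Leaving out control replicate 3 and cKO replicate 5 together, chosen after seeing the data, kept the number of members called at 6. No paired analysis was possible because control mice are numbered 1 to 4 and cKO mice 5 to 8, with no shared number.

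The counts of Oas2, Oas3 and Oasl1 per cluster are low, and a rise that was not called there is not shown to be absent. P-values over all cells measure the spread between 4 mice of a group. In a cluster, where sums of 2 to 4 mice of a group were compared, they rest on a shared spread. It was estimated from the sums of all clusters in the single fit, not from the mice of that cluster alone.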
